A study of Mus musculus with 6 samples.

Results

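The metallothioneins and zinc transporters examined here are 10 genes of mouse liver: Mt1 and Mt2, which encode metallothioneins, Mtf1, which encodes their zinc-sensing regulator, 3 exporters of the SLC30 family (Slc30a1, Slc30a5 and Slc30a10) and 4 importers of the SLC39 family (Slc39a1, Slc39a4, Slc39a7 and Slc39a8). They were taken by symbol from a table in which 19594 genes had counts, and all 10 were among the 11794 genes that passed the filter on low counts and were tested. The 6 cap-enriched liver RNA libraries came from male C57BL6-background mice, 2 months old, 3 labelled SHP -/- and 3 wild type (WT). SHP is an orphan nuclear receptor encoded by Nr0b2 that represses other transcription factors. Both groups share strain background, sex, age and tissue, and the labels name no treatment and no detail of the altered allele.

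Metallothioneins are small cysteine-rich proteins that bind zinc and copper in the cytosol, and the liver is a main site of their synthesis. When free zinc rises, MTF1 enters the nucleus and binds short metal response elements in the promoters of metallothionein genes and of the zinc exporter Slc30a1. Metallothionein genes also respond to glucocorticoids and, together with IL6 and STAT3, to inflammation. SLC39 (ZIP) proteins bring zinc into the cytosol from outside the cell or from organelles, and SLC30 (ZnT) proteins move it out of the cytosol.

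The promoters of Mt1, Mt2 and Slc30a1 are shown because these are the genes among the 10 whose regulation by MTF1 is best known. Each runs 5′ to 3′ on the gene's strand from 250 bases before the start site to 50 after it, as given by RefSeq on GRCm38.p6. Capitals mark the core of the metal response element, searched as TGCACNC or TGCGCNC on both strands, so that a match on the other strand reads GNGTGCA or GNGCGCA. The windows are chr8:94178839-94179138 for Mt1, chr8:94172368-94172667 for Mt2 and chr1:191906531-191906830 for Slc30a1, all on the plus strand.
Mt1: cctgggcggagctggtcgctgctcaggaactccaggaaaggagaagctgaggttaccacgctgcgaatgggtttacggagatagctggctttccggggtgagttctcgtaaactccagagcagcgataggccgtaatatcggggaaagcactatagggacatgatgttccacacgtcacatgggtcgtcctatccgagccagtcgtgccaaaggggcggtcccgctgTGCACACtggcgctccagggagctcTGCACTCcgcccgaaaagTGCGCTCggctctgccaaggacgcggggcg
Mt2: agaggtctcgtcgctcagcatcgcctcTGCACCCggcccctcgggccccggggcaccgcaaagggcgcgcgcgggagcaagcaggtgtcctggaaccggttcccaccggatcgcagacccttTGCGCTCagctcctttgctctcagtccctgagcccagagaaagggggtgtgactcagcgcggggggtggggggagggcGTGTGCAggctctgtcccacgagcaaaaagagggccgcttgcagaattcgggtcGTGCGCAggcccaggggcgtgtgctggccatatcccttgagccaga
Slc30a1: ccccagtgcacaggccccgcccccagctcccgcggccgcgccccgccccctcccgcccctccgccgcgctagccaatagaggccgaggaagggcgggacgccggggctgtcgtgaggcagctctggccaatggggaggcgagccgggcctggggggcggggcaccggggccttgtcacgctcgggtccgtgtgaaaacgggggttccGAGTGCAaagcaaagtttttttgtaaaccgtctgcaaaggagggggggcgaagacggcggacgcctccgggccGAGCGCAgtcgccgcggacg

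The Mt1 window held 3 matches, all on the gene's own strand, starting 23 bases upstream of the start site and at 2 and 20 bases downstream of it. The Mt2 window held 4, of which those at 223 and 128 bases upstream lay on the gene's strand and those at 50 bases upstream and 4 bases downstream on the other strand. The Slc30a1 window held 2, both on the other strand. Of 32851 promoters of this length in the same table, 25.7% held at least 1 match, 7.11% at least 2, 1.97% at least 3 and 0.517% at least 4. Of the 9 genes with an entry in the table, 6 had at least 1 match, with 3 in Slc30a10 (of which 2 overlap each other), 1 in Slc30a5 and 1 in a window of Slc39a8, and 0 in Mtf1, Slc39a1 and Slc39a7. Slc39a4 has no entry. A match is a description of the letters and not evidence of binding. Positions are relative to the RefSeq start site, and the start sites used in these libraries were not examined. How far a match lies from the start of transcription in liver is therefore not known. Sequence outside the windows was not searched, so further elements may lie beyond them.

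Library totals over genes ran from 4494353 to 7225842 counts in SHP-/- and from 4982530 to 6155064 in WT. Mitochondrially encoded genes took 5.66% to 7.1% of SHP-/- counts and 10.2% to 10.3% of WT counts. Nr0b2 itself, the targeted gene, had 29, 36 and 77 counts in SHP-/- libraries 1, 2 and 3, against 104, 59 and 85 in WT libraries 1, 2 and 3. Its log2 difference, SHP-/- over WT, was −0.81 ± 0.25 (SE; limma voom, adjusted p = 0.0442), and of the 6 fits that each omitted a library only that without SHP-/- library 3 kept the call (−1.06; adjusted p up to 0.121 in the others). Albumin (Alb), which marks hepatocytes, was at 57100 ± 3750 CPM in SHP-/- and 55800 ± 9560 CPM in WT (SD, n = 3 each; CPM are counts relative to the scaled library size). These are bulk samples, in which fewer cells of a type and less RNA per cell cannot be told apart.

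Of the 10 genes, 2 rose (Mt1 and Slc39a7), 2 fell (Slc30a1 and Slc39a4) and 6 did not pass the threshold, a limma voom adjusted p under 0.05 over all genes tested. Across all genes tested 14.5% passed, 7.58% towards higher and 6.94% towards lower. The SHP-/- and WT libraries did not overlap for 3 of the 10 (Slc30a1, Slc39a4 and Slc39a7) and for 35.1% of all genes tested. The median log2 difference was −0.01 over the 10 genes and −0.01 over all genes tested. Slc39a4 was the only one of the 10 that passed whichever of the 6 libraries was left out. Of the 10, 0 rose and 1 fell without SHP-/- library 1 or WT library 3, 1 rose and 1 fell without SHP-/- library 2 or WT library 2, 0 rose and 2 fell without WT library 1, and 3 rose and 2 fell without SHP-/- library 3.

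**Figure D1:**
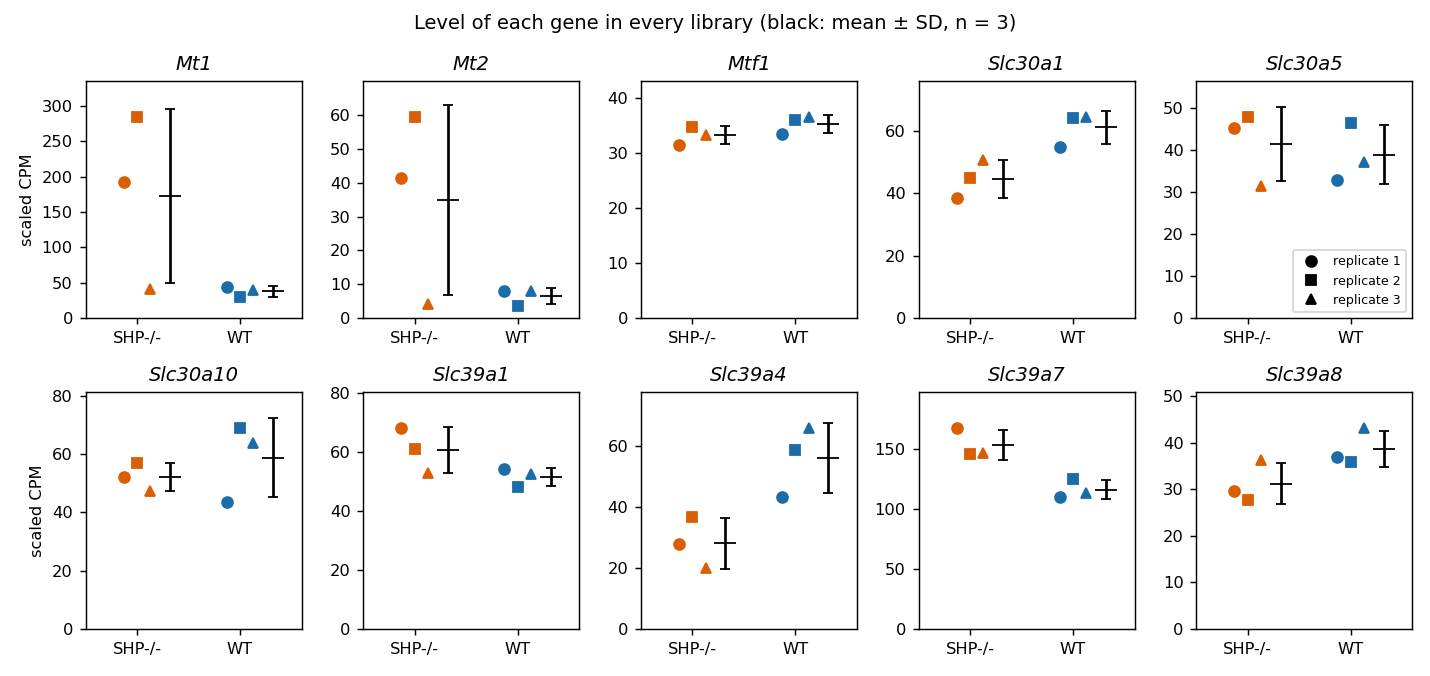
Scaled CPM of each of the 10 genes in the 3 SHP-/- libraries (orange, left) and the 3 WT libraries (blue, right), with a separate axis from 0 for each gene; symbols mark the replicate number, and black bars the mean ± SD. SHP-/- libraries 1 and 2 stand far above the rest for Mt1 and Mt2 while library 3 lies at the WT level, and the groups are separate for Slc30a1, Slc39a4 and Slc39a7.

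Mt1 transcripts were several times higher in SHP-/- libraries 1 and 2 than in any other library, and SHP-/- library 3 was not. Mt1 (ENSMUSG00000031765; mm9 chr8:96703141-96704225, plus strand) had 843, 1448 and 309 counts in SHP-/- libraries 1, 2 and 3, against 262, 143 and 252 in WT libraries 1, 2 and 3. On scaled sizes this was 193, 284 and 41.5 CPM in SHP-/-, against 44.7, 29.7 and 40.0 CPM in WT. The groups overlapped, since SHP-/- library 3 lay below WT library 1. Mean Mt1 levels were 173 ± 123 CPM in SHP-/- and 38.1 ± 7.66 CPM in WT (SD, n = 3 each), so that the SD was 71.0% of the mean in SHP-/- and 20.1% in WT. The log2 difference was 1.74 ± 0.55 (95% interval 0.56 to 2.93; limma voom, adjusted p = 0.049).

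The call of Mt1 sat at the edge of the threshold and rested on which libraries were used. It was kept only without SHP-/- library 3, where the log2 difference was 2.62 (adjusted p = 4.51e-06). Without SHP-/- library 2 the log2 difference was 1.17 and without SHP-/- library 1 it was 1.46, with adjusted p of 0.099 and 0.111. Leaving out WT library 1, 2 or 3 gave log2 differences of 1.86, 1.58 and 1.79, with adjusted p of 0.0951, 0.151 and 0.172. Under robust variance moderation the adjusted p was 0.322.

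Mt2, the neighbouring metallothionein gene (ENSMUSG00000031762; mm9 chr8:96696684-96697462, plus strand), ends 5678 bases before Mt1 begins. It had 181, 302 and 32 counts in SHP-/- libraries 1, 2 and 3, against 47, 18 and 50 in WT libraries 1, 2 and 3. The levels were 41.3, 59.3 and 4.3 CPM in SHP-/-, against 8.02, 3.74 and 7.94 CPM in WT. As for Mt1, SHP-/- libraries 1 and 2 were the highest of the 6, and SHP-/- library 3 lay between the WT libraries, so the groups overlapped. The means were 35.0 ± 28.0 CPM in SHP-/- and 6.57 ± 2.45 CPM in WT (SD, n = 3 each). The log2 difference was 1.49 ± 0.97 (95% interval −0.60 to 3.57; limma voom, adjusted p = 0.325), which did not pass. Without SHP-/- library 3 it was 2.94 and passed (adjusted p = 3.11e-05), and without SHP-/- library 2 it was 0.69.

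Both metallothionein genes moved together across libraries. The summed level of Mt1 and Mt2 was 234, 344 and 45.8 CPM in SHP-/- libraries 1, 2 and 3, against 52.7, 33.5 and 48.0 CPM in WT libraries 1, 2 and 3. Mt1 had 4.66, 4.79 and 9.66 counts for each Mt2 count in SHP-/-, against 5.57, 7.94 and 5.04 in WT. The split between the genes in SHP-/- libraries 1 and 2 was thus slightly below the WT range, while SHP-/- library 3 had the most Mt1 per Mt2. The genes are similar in sequence, and the sources used here do not say how reads matching both were counted, so their separate values are less certain than their sum. The authors' deposited table gives log2 ratios of 2.18 for Mt1 and 2.39 for Mt2, from counts summed over each group. The fitted 1.74 and 1.49 are lower and compare log2 levels per library, whereas such sums are led by libraries with the most counts. Mt3 and Mt4, the remaining mouse metallothionein genes, had no row with counts in the table, so their levels are not known here.

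**Figure D2:**
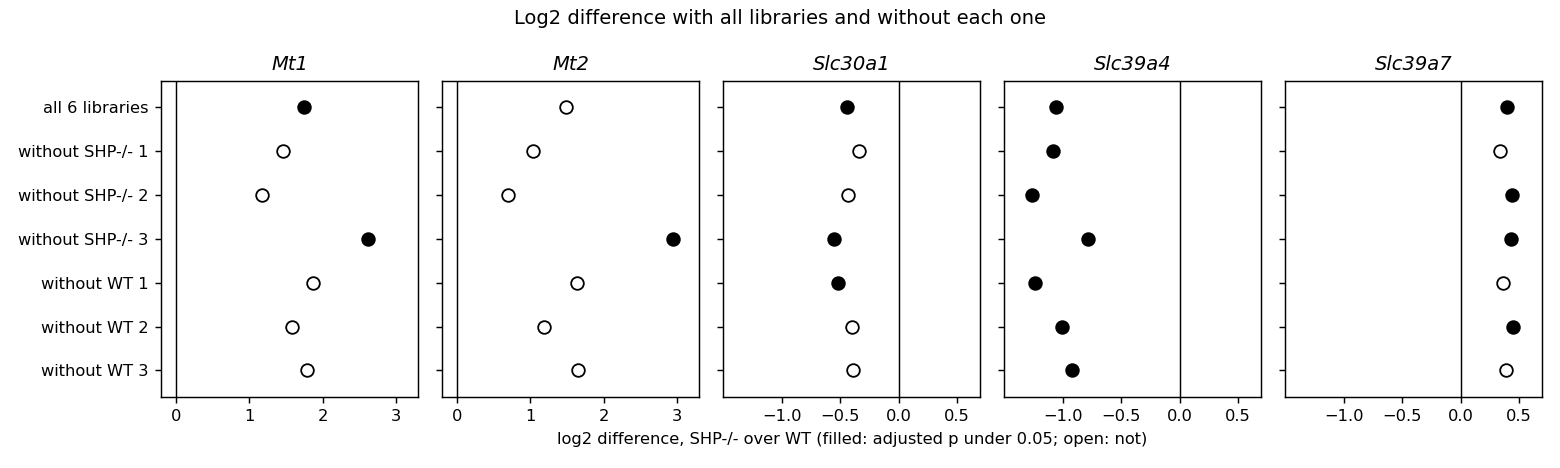
Log2 difference, SHP-/- over WT, of 5 genes in the fit of all 6 libraries (top) and in the 6 fits that leave out 1 library; filled points passed the threshold of adjusted p under 0.05 and open points did not. Slc39a4 is filled throughout, while Mt1 is filled with all libraries and without SHP-/- library 3, where it reaches 2.62.

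Mtf1, whose product binds metal response elements (ENSMUSG00000028890; mm9 chr4:124479348-124526623, plus strand), was nearly even across libraries. Its levels were 31.5, 34.8 and 33.3 CPM in SHP-/-, against 33.4, 36.0 and 36.5 CPM in WT. The log2 difference was −0.09 ± 0.13 (95% interval −0.37 to 0.20; limma voom, adjusted p = 0.704), and SHP-/- libraries 1 and 2, at the metallothionein maximum, did not stand apart in it. Of 7 genes reported elsewhere as MTF1 targets, 0 rose, 2 fell and 5 did not pass, beside 7.58% of all genes higher and 6.94% lower. Their median log2 difference was −0.08, and 1 fell without SHP-/- library 1 or 2 or WT library 2 or 3. The list includes Slc39a10, which MTF1 is reported to repress and which is counted again among the zinc transporters below. These counts therefore give no direction of MTF1 activity. Slc40a1, the iron exporter ferroportin, fell to 93.4 ± 9.92 CPM in SHP-/-, against 152 ± 13.9 CPM in WT (log2 difference −0.69 ± 0.12, adjusted p = 0.00234), and passed in all 6 fits without 1 library. Gclc, the catalytic subunit of the enzyme that starts glutathione synthesis, fell to 401 ± 38.0 CPM in SHP-/-, against 529 ± 63.4 CPM in WT (−0.39 ± 0.11, adjusted p = 0.0354). The Gclc call was lost without SHP-/- library 1 or 2 or WT library 2 or 3 (adjusted p = 0.131, 0.0851, 0.109 and 0.146). Sepw1, a selenoprotein gene, had a log2 difference of −0.08 ± 0.17 and did not pass.

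Slc39a4, the zinc importer known from dietary zinc uptake in the gut, was lower in every SHP-/- library than in any WT library. It (ENSMUSG00000063354; mm9 chr15:76442815-76447282, minus strand) had 122, 187 and 149 counts in SHP-/- libraries 1, 2 and 3, against 255, 284 and 416 in WT libraries 1, 2 and 3. The levels were 27.9, 36.7 and 20.0 CPM in SHP-/-, against 43.5, 59.0 and 66.1 CPM in WT, with SHP-/- library 3 the lowest. The means were 28.2 ± 8.36 CPM in SHP-/- and 56.2 ± 11.5 CPM in WT (SD, n = 3 each). The log2 difference was −1.06 ± 0.21 (95% interval −1.51 to −0.60; limma voom, adjusted p = 0.00576), a level 0.48 times that of WT. Over the 6 fits without 1 library it ran from −1.26 to −0.78, with adjusted p from 0.00272 to 0.0464. The authors' deposited table gives a log2 ratio of −0.99 for the pooled groups of Slc39a4. Pancreas and gut markers summed to 55.4 to 62.8 CPM in SHP-/- and 70.2 to 91.3 CPM in WT. Of the 7 listed genes 4 had counts and 3 were tested, of which 1 rose and 1 fell, beside 14.5% of all genes tested. Prss1, Cpa1 and Amy2a5 had no row with counts, so their levels are not known here. The part of other tissue in the Slc39a4 difference was not tested.

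Slc39a7, which releases zinc from the endoplasmic reticulum and Golgi into the cytosol (ENSMUSG00000024327; mm9 chr17:34165218-34168510, minus strand), was modestly higher in SHP-/-. It had 736, 743 and 1096 counts in SHP-/- libraries 1, 2 and 3, against 647, 599 and 718 in WT libraries 1, 2 and 3. The levels were 168, 146 and 147 CPM in SHP-/-, against 110, 125 and 114 CPM in WT, and the groups did not overlap. The means were 154 ± 12.5 CPM in SHP-/- and 116 ± 7.35 CPM in WT (SD, n = 3 each). The log2 difference was 0.40 ± 0.11 (95% interval 0.17 to 0.63; limma voom, adjusted p = 0.0245). The call was lost without SHP-/- library 1 or WT library 1 or 3 (adjusted p = 0.0954, 0.0642 and 0.0906), with log2 differences from 0.34 to 0.45 over the 6 fits.

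The other importers among the 10 did not pass. Slc39a1, a zinc importer of the plasma membrane (ENSMUSG00000052310; mm9 chr3:90052094-90057534, plus strand), was at 68.3, 61.1 and 52.9 CPM in SHP-/-, against 54.2, 48.2 and 52.6 CPM in WT. The groups overlapped only in that SHP-/- library 3 lay below WT library 1, and the log2 difference was 0.21 ± 0.13 (95% interval −0.07 to 0.49; limma voom, adjusted p = 0.30). Slc39a8, which also carries manganese and iron (ENSMUSG00000053897; mm9 chr3:135488243-135551532, plus strand), was at 29.7, 27.7 and 36.2 CPM in SHP-/-, against 37.0, 35.8 and 43.2 CPM in WT. SHP-/- library 3 again lay within the WT range, and the log2 difference was −0.30 ± 0.15 (95% interval −0.62 to 0.03; limma voom, adjusted p = 0.199).

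Among the exporters, Slc30a1, the main zinc exporter of the plasma membrane and a target of MTF1 (ENSMUSG00000037434; mm9 chr1:193730646-193737126, plus strand), was lower in SHP-/-. It had 168, 228 and 376 counts in SHP-/- libraries 1, 2 and 3, against 321, 308 and 405 in WT libraries 1, 2 and 3. The levels were 38.4, 44.8 and 50.5 CPM in SHP-/-, against 54.8, 64.0 and 64.3 CPM in WT. The groups did not overlap, and the SHP-/- library with the least Mt1 and Mt2, library 3, had the most Slc30a1 of its group. The means were 44.5 ± 6.06 CPM in SHP-/- and 61.0 ± 5.44 CPM in WT (SD, n = 3 each), and the log2 difference was −0.44 ± 0.14 (95% interval −0.73 to −0.15; limma voom, adjusted p = 0.0454). The call was lost without SHP-/- library 1 or 2 or WT library 2 or 3 (adjusted p = 0.15, 0.101, 0.115 and 0.158), with log2 differences from −0.55 to −0.34 over the 6 fits. It was also lost on unscaled library totals (adjusted p = 0.0576) and with no filter on low counts (adjusted p = 0.0762). A gene on the opposite strand, 1700034H15Rik, overlaps Slc30a1 by 761 bases and had 0 counts in each SHP-/- library and 2, 4 and 0 in WT libraries 1, 2 and 3.

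Slc30a5, which loads zinc into the secretory pathway (ENSMUSG00000021629; mm9 chr13:101572604-101603382, minus strand), was at 45.4, 47.9 and 31.5 CPM in SHP-/-, against 32.9, 46.6 and 37.3 CPM in WT. The groups overlapped, and the log2 difference was 0.07 ± 0.18 (95% interval −0.32 to 0.45; limma voom, adjusted p = 0.839), with its sign turning to −0.01, −0.05 and −0.05 without SHP-/- library 1, SHP-/- library 2 or WT library 1. Slc30a10, which in human and mouse liver exports manganese (ENSMUSG00000026614; mm9 chr1:187278727-187292641, plus strand), was at 52.1, 57.1 and 47.4 CPM in SHP-/-, against 43.5, 69.0 and 63.8 CPM in WT. WT library 1 was the lowest of the 6, so the groups overlapped, and the log2 difference was −0.15 ± 0.16 (95% interval −0.50 to 0.20; limma voom, adjusted p = 0.581). An opposite-strand gene, AC131980.1, overlaps Slc30a10 by 721 bases and had at most 9 counts in a library.

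Per length of transcript, Mt1 was the most abundant of the 10 genes in both groups, at 287 ± 204 CPM per kb in SHP-/- and 63.5 ± 12.7 CPM per kb in WT (SD, n = 3 each). In SHP-/- it was followed by Mt2 (mean 90.8), Slc39a7 (68.0), Slc39a1 (25.7), Slc30a5 (13.1), Slc39a4 (12.7), Slc30a10 (9.84), Slc30a1 (9.32), Slc39a8 (4.23) and Mtf1 (4.21 CPM per kb). Neighbours in that order were separate, with no overlap of their libraries, only between Slc39a7 and Slc39a1, between Slc39a1 and Slc30a5, and between Slc30a1 and Slc39a8. In WT the order after Mt1 was Slc39a7 (mean 51.4), Slc39a4 (25.3), Slc39a1 (21.9), Mt2 (17.1), Slc30a1 (12.8), Slc30a5 (12.3), Slc30a10 (11.1), Slc39a8 (5.24) and Mtf1 (4.48 CPM per kb). There the separate neighbours were Slc39a7 and Slc39a4, Slc30a10 and Slc39a8, and Slc39a8 and Mtf1. Mt2 thus ranked above all 8 other non-Mt1 genes by its SHP-/- mean and below Slc39a7, Slc39a4 and Slc39a1 by its WT mean, although its SHP-/- libraries ran from 11.2 to 154 CPM per kb.

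**Figure D3:**
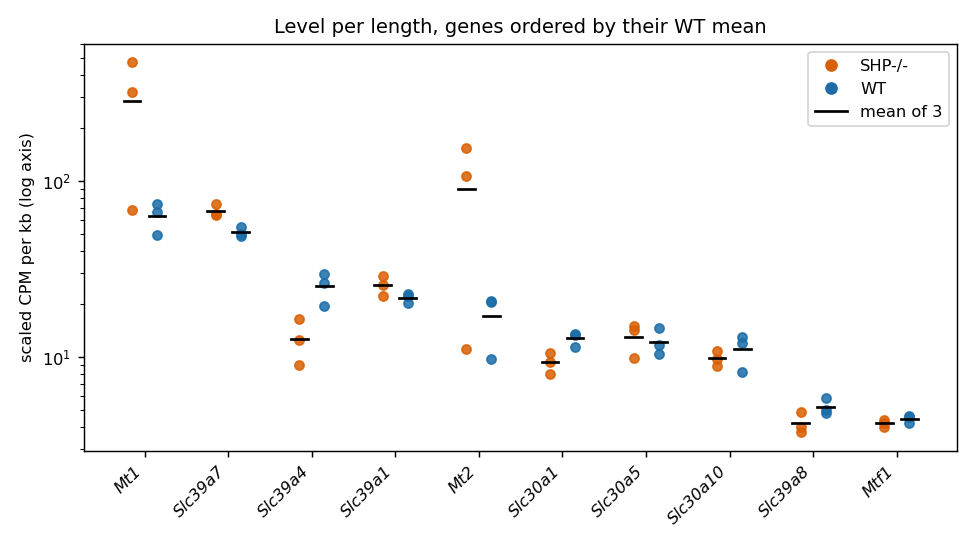
Scaled CPM per kb of gene length (log axis) for the 10 genes, ordered by their WT mean, in the SHP-/- libraries (orange, left of each pair) and the WT libraries (blue, right); black bars are means of 3. Mt1 is highest in both groups, and the SHP-/- points of Mt1 and Mt2 spread widest.

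The zinc transporter genes outside the 10 were read from the same fit. Of 17 such genes 16 had counts and 11 were tested, of which 2 rose, 0 fell and 9 did not pass, beside 7.58% of all genes higher and 6.94% lower. The median log2 difference was 0.08, and 1 rose without SHP-/- library 2 or WT library 2 or 3. Slc39a14, an importer of zinc, iron and manganese at the hepatocyte surface that IL6 induces, was at 360, 357 and 304 CPM in SHP-/-, against 222, 192 and 193 CPM in WT. Every SHP-/- library was above every WT library, and the log2 difference was 0.75 ± 0.11 (limma voom, adjusted p = 0.000873; adjusted p up to 0.0113 without 1 library). Slc39a3, a plasma membrane zinc importer, rose to 17.6 ± 0.621 CPM in SHP-/-, against 10.8 ± 0.369 CPM in WT (SD, n = 3 each; log2 difference 0.70 ± 0.18, limma voom adjusted p = 0.0229). Its call was lost without SHP-/- library 2 or 3 or WT library 2 or 3 (adjusted p = 0.0543, 0.0581, 0.058 and 0.0813).

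Slc39a13 and Slc39a11 were separate between groups without passing, with log2 differences of 0.80 ± 0.31 and 0.38 ± 0.16 (limma voom, adjusted p = 0.0978 and 0.121). Without SHP-/- library 3, Slc39a11 passed at 0.57 (adjusted p = 0.0264). Slc39a10, a zinc importer that MTF1 is reported to repress, was at 4.66 ± 1.67 CPM in SHP-/- and 8.38 ± 2.88 CPM in WT, and its log2 difference of −0.86 ± 0.34 did not pass (adjusted p = 0.107). Slc39a6, the gene closest to it in sequence, had −0.77 ± 0.46 and Slc39a9 had −0.14 ± 0.12. The tested exporters Slc30a4, Slc30a6, Slc30a7 and Slc30a9 had log2 differences from −0.17 for Slc30a9 to 0.22 for Slc30a6, none past the threshold. Together the 16 genes with counts summed to between 520 and 617 CPM in SHP-/- and between 423 and 453 CPM in WT, of which Slc39a14 made up the largest share. Slc30a2, Slc30a3, Slc30a8, Slc39a2 and Slc39a5 were below the filter. Slc30a3 had 0 counts in each SHP-/- library and 3, 5 and 2 in WT libraries 1, 2 and 3, and with no low-count filter it passed towards lower (limma voom, adjusted p = 0.0387).

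**Figure D4:**
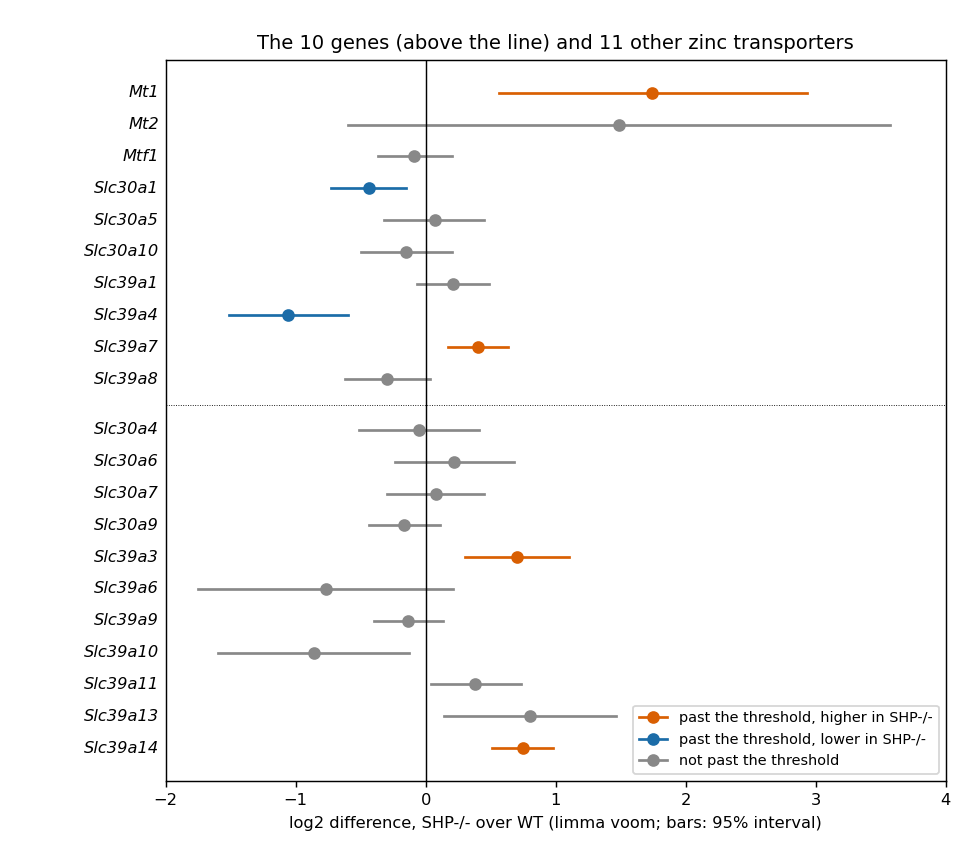
Log2 difference, SHP-/- over WT, with its 95% interval for the 10 genes (above the dotted line) and the 11 other zinc transporters tested (below it); orange marks genes past the threshold and higher in SHP-/-, blue those past it and lower, grey the rest. Mt2 has the widest interval, −0.60 to 3.57, and Slc39a14 a narrow one around 0.75.

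Genes of inputs known to act on metallothionein genes were also read. These lists, like the others, were chosen with earlier results of these data known. A count set beside the share of all genes is therefore a description and not a test. Of 10 IL6 and STAT3 target genes, 7 rose, 0 fell and 3 did not pass, beside 7.58% of all genes higher and 6.94% lower, and the median log2 difference was 0.76. Slc39a14 is one of the 7 and is also counted among the zinc transporters above. Saa1, an acute phase apolipoprotein, was at 326, 176 and 94.4 CPM in SHP-/-, against 62.8, 46.6 and 71.1 CPM in WT (log2 difference 1.53 ± 0.33, limma voom adjusted p = 0.0089). Socs3, which restrains STAT3, was at 73.3, 94.8 and 38.3 CPM in SHP-/-, against 21.0, 4.57 and 5.88 CPM in WT (2.86 ± 0.49, adjusted p = 0.00235). Both calls held in each fit with 1 library left out and did not hold with robust variance moderation (adjusted p = 0.166 for Saa1 and 0.0935 for Socs3). As for Mt1 and Mt2, SHP-/- library 3 was the lowest of its group for both. Saa1 was highest in SHP-/- library 1, while Socs3, Mt1 and Mt2 were highest in SHP-/- library 2. SHP-/- library 3 stayed above the WT libraries for Saa1 and Socs3 and lay below WT library 2 for Hp and Fgg. Haptoglobin (Hp) and fibrinogen gamma (Fgg) also rose, with overlapping groups, by 0.77 ± 0.21 and 0.39 ± 0.12 on the log2 scale (adjusted p = 0.025 and 0.0434). The call of Hp was lost without SHP-/- library 1 or 2 or WT library 3 (adjusted p = 0.0888, 0.0565 and 0.15), and that of Fgg without SHP-/- library 1 or 2 or WT library 1 or 3 (adjusted p = 0.134, 0.14, 0.135 and 0.144). Hamp, which encodes the iron hormone hepcidin, had a log2 difference of 0.71 ± 0.28 and did not pass (adjusted p = 0.109), except without WT library 2 (1.11, adjusted p = 0.0144). Its order of libraries differed from that of Mt1 and Mt2, with SHP-/- library 3 the highest of its group. Hamp was at 175, 215 and 335 CPM in SHP-/- libraries 1, 2 and 3, against 127, 250 and 94 CPM in WT libraries 1, 2 and 3. The summed level of the list was 10900, 10100 and 7670 CPM in SHP-/- libraries 1, 2 and 3, against 6050, 7510 and 6020 CPM in WT libraries 1, 2 and 3. The number that rose was 4 without SHP-/- library 1 or WT library 1, 3 without SHP-/- library 2 or WT library 3, 8 without SHP-/- library 3, and 3 under robust variance moderation. Whether these inputs had a part in the metallothionein levels was not tested.

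Of 10 glucocorticoid target genes, 2 rose, 1 fell and 7 did not pass, beside 7.58% of all genes higher and 6.94% lower (median log2 difference −0.04). Without SHP-/- library 2 or WT library 1 or 2, 1 rose, and without SHP-/- library 3 or WT library 3, 3 rose. Fkbp5, a chaperone of the glucocorticoid receptor, was at 98.2, 74.8 and 74.6 CPM in SHP-/-, against 49.1, 50.7 and 51.1 CPM in WT (log2 difference 0.69 ± 0.13, limma voom adjusted p = 0.00439), and passed in all 6 fits without 1 library. Dusp1, a phosphatase of MAP kinases, rose by 0.97 ± 0.28 (adjusted p = 0.0359), with overlapping groups, and its call was lost without SHP-/- library 2 or WT library 1 or 2 (adjusted p = 0.0976, 0.116 and 0.141) and under robust variance moderation (adjusted p = 0.266). Tat, tyrosine aminotransferase, fell by −0.35 ± 0.10 (adjusted p = 0.0284), and its call did not hold without any one of the 6 libraries (adjusted p from 0.0509 to 0.0985). Tsc22d3 passed towards lower without SHP-/- library 1 or WT library 1 (adjusted p = 0.0329 and 0.0281) and Sgk1 without SHP-/- library 2 (adjusted p = 0.010), while 0 of the list fell without SHP-/- library 3 or WT library 2 or 3. Pck1, of gluconeogenesis, had a log2 difference of 0.05 ± 0.10 and did not pass.

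Of 10 genes of copper handling 1 rose, 1 fell and 8 did not pass (median log2 difference −0.07), and of 10 zinc enzymes 2 passed as well, beside 14.5% of all genes tested. Atox1, the copper chaperone, was at 48.9, 46.3 and 47.5 CPM in SHP-/-, against 35.7, 39.9 and 23.5 CPM in WT (log2 difference 0.58 ± 0.17, limma voom adjusted p = 0.0389), a call lost without any one SHP-/- library or WT library 3 (adjusted p = 0.0843, 0.0638, 0.0706 and 0.182; log2 difference 0.34 in the last of these fits). Slc31a1, the copper importer, fell to 208 ± 3.26 CPM in SHP-/-, against 272 ± 11.2 CPM in WT (−0.38 ± 0.10, adjusted p = 0.0165), a call lost without SHP-/- library 2 or WT library 2 or 3 (adjusted p = 0.068, 0.0509 and 0.0511). Cp, the copper-carrying plasma ferroxidase, had −0.31 ± 0.12 and did not pass (−0.41 and past the threshold without WT library 1, adjusted p = 0.0369). With SHP-/- library 1, 2 or 3 left out, 0 copper genes rose and 1, 0 and 2 fell, and with WT library 1, 2 or 3 left out 2, 1 and 0 rose and 2, 0 and 0 fell. Of 10 zinc enzymes of liver 0 rose, 2 fell and 8 did not pass (median −0.07), and 1 fell without SHP-/- library 1 or 2 or WT library 2 or 3, with 1 risen without SHP-/- library 2 or WT library 2. Car14, a membrane carbonic anhydrase, fell to 24.0, 28.1 and 29.0 CPM in SHP-/-, against 79.5, 52.0 and 85.3 CPM in WT (−1.39 ± 0.19, adjusted p = 0.000601), and passed in all 6 fits without 1 library. Car3 fell by −0.48 ± 0.12 (adjusted p = 0.0218), a call lost without SHP-/- library 1 or 2 or WT library 2 or 3 (adjusted p = 0.091, 0.0932, 0.0699 and 0.0935), and Adh1, alcohol dehydrogenase, had −0.17 ± 0.09 and did not pass.

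The genes most like Mt1 across the 6 libraries were found by the root mean square distance between log2 CPM, each gene centred on its own mean, among 9528 genes at 5 CPM or more. They were Tnfaip3, which restrains NF-kappaB signalling, at a distance of 0.25, Nfkbiz at 0.36 and Btg2 at 0.39, with Mt2 next at 0.39. Tnfaip3 was at 15.5, 28.5 and 4.83 CPM in SHP-/-, against 5.29, 3.74 and 3.33 CPM in WT, the same order of SHP-/- libraries as Mt1. Mt2 lay nearest to Mt1, then Ugt2b37 (0.52) and Tnfaip3 (0.60). Ugt2b37 belongs to a family of similar genes, so its own value is uncertain. For Slc30a10 the nearest genes were Hspa13 (0.06), Skap2 (0.07) and Zfp410 (0.07), small distances between genes that all varied little. These distances describe 6 libraries and carry no test.

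Markers of other liver cells were read beside these values, with 7.58% of all genes tested higher and 6.94% lower. Kupffer cell and macrophage markers summed to 322 to 484 CPM in SHP-/- and 325 to 381 CPM in WT (9 tested, 2 rose, 0 fell, median log2 difference 0.1). Endothelial markers summed to 328 to 512 CPM in SHP-/- and 484 to 541 CPM in WT (8 tested, 1 rose, median −0.24). The 1 endothelial call thus ran against the median of its list. Stellate and matrix markers summed to 202 to 408 CPM in SHP-/- and 383 to 416 CPM in WT (8 tested, 1 fell, median −0.35). Cholangiocyte markers (3 of 6 tested) and erythroid markers (5 of 7) had 0 calls, at 31.3 to 62.4 CPM in SHP-/- and 47.0 to 50.7 CPM in WT, and at 195 to 333 CPM in SHP-/- and 195 to 222 CPM in WT. Lymphocyte and neutrophil markers summed to at most 2.74 CPM in SHP-/- and 2.70 CPM in WT. SHP-/- library 1 stood apart from the other libraries of its group. Its sums were 322, 328, 202 and 31.3 CPM for the macrophage, endothelial, stellate and cholangiocyte markers, the lowest of the 6 libraries in each. The same sums were 484, 512, 406 and 62.4 CPM in SHP-/- library 2 and 443, 491, 408 and 38.8 CPM in SHP-/- library 3. Hepatocyte markers summed to 71400 to 78500 CPM in SHP-/- and 64900 to 85700 CPM in WT (6 tested; 1 fell, Tat, which is also the glucocorticoid target that fell). Their part in the differences of the 10 genes was not tested.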

How the data were processed

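Liver RNA was selected for its 5′ cap with a variant of EIF4E and sequenced as paired reads, per the labels' protocols, so values are of capped RNA. The submitters' processing notes name Novoalign 2.05.33 and mm9. The counter, its use of strand and its handling of multiple alignments were not given in the sources used here. Deposited by the authors were whole-number read counts per gene and library, RPKM for each pooled group, and a log2 ratio between the pooled groups. Of 33495 genes listed, 13901 had empty cells and were left out, and 4840 lines end early. Of counts between 1 and 19, 61.8% were even, so counts are not independent fragments. The labels do not tie libraries to lanes, so a lane effect cannot be separated from genotype, and whether lanes differed by genotype is not known. The p-values set the difference between groups against the spread between the 3 samples of a group, moderated over all genes tested.

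A gene was tested when 3 libraries reached 1.83 CPM (10 counts in the median library) and its total reached 15. Log2 CPM with 0.5 added to each count, scaled by trimmed means of M values (factors 0.965 to 1.03), went into limma voom (limma 3.58.1, R 4.3.3; Benjamini-Hochberg adjustment) with no term but genotype. The fit was tested on simulated data, drawn with the same variability setting for every gene. That test does not bear on genes as variable between libraries as Mt1 and Mt2. Tables and plots used Python 3.11.15, pandas 2.3.3, numpy 2.4.6 and matplotlib 3.10.9. Alternatives changed the scaling, filter, variance model, weights or libraries.

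The 10 genes and all lists were chosen with earlier results of these data known. Named genes are the 10, the tested zinc transporters, up to 4 passing and the most abundant other gene of each list, and the nearest genes in pattern; not all are described, and Socs3, Lbp, Slc30a3, Tsc22d3 and Sgk1 were added after their values were seen. Start coordinates were raised by 1 to count from 1. Promoters were matched by symbol, for 9 of 10 genes.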

Additional observations from a re-analysis of the deposited data

How the results depend on the processing

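With 894 genes higher and 819 lower in SHP-/- among all genes tested, leaving out 1 library gave 352 to 828 higher and 281 to 796 lower. Among the 10 genes, 0 to 3 rose and 1 to 2 fell across those fits, 1 rose under robust variance moderation, which lost Mt1, and 1 fell on unscaled totals and 1 with no low-count filter, both of which lost Slc30a1. Slc39a4 and Slc39a7 passed in all 9 alternatives that kept every library. For Nr0b2 the log2 difference was −0.81 on unscaled totals and −0.81 with no filter (adjusted p = 0.0536 and 0.0668), and from −1.06 to −0.65 without 1 library. Signs turned among small differences without 1 library, with ranges of −0.05 to 0.29 for Slc30a5, −0.24 to 0.14 for Slc30a4, −0.21 to 0.09 for Sepw1 and −0.01 to 0.11 for Pck1. Under limma trend Atox1 and Fgg lost their calls (adjusted p = 0.0505 and 0.0802), and under robust moderation Hp, Saa1, Socs3 and Lbp did (0.189, 0.166, 0.0935 and 0.0629). With no low-count filter 1 further zinc transporter, Slc30a3, passed towards lower (adjusted p = 0.0387). The causes were not tested.

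No label says that equal replicate numbers mark a shared animal, litter or day. Same-numbered SHP-/- and WT libraries had correlations of −0.02 in their deviations from group means, and the other pairs ran from −0.01 to 0.03. Because deviations are centred within each group, these correlations balance around 0, and same-numbered pairs were not above the rest. With a replicate block, 936 genes were higher and 842 lower, Mt2 passed (2.31, adjusted p = 0.0135), so that 3 of the 10 rose and 2 fell, and Nr0b2 did not pass (−0.79, adjusted p = 0.0552). Levels per length on a reference transcript of the files' build were planned and not run.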
